A study of Mus musculus with 3 samples.

Results

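The cytosolic ribosomal protein genes were followed through single-cell transcriptomes of mouse inguinal adipose tissue, a subcutaneous fat depot. Members were all features whose symbol follows the pattern of a small-subunit (Rps, Rpsa) or large-subunit (Rpl, Rplp) cytosolic ribosomal protein, which gave 83 of 31053 features, 32 of the small and 51 of the large subunit. The study compared 3 libraries of stromal and vascular cells, each a single sample: Pdgfra-Cre; TERT fl/fl, Pdgfrb-Cre; TERT fl/fl, and TERT +/+. Tert codes for the reverse transcriptase of telomerase, and Cre removes the floxed gene in cells that use, or have used, the promoter of platelet-derived growth factor receptor alpha or beta, both active in mesenchymal cells. They are called the Pdgfra-Cre, Pdgfrb-Cre and wild-type libraries below. The labels give no Cre for the wild-type sample, whose title holds an unexplained "PBS", and no age, sex or number of animals. Cells with mesothelial markers numbered 123 in the Pdgfra-Cre library and 0 in each of the others. Whether all 3 libraries came from the same depot was not tested. Per the labels' protocols, a dead cell removal kit and a step against erythrocytes came before capture. With 1 library per genotype, genotype and library cannot be told apart, no test between genotypes was possible, and each difference between genotypes is a difference between 2 libraries.

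The ribosome is built from ribosomal RNA and about one protein of each kind per particle, so cells make its proteins in matched amounts. Their mRNAs are among the most abundant of any cell. Most begin at a cytosine within a stretch of pyrimidines, the 5-prime terminal oligopyrimidine (TOP) motif, through which mTORC1 and LARP1 set their translation and stability, while MYC raises transcription of the set. Free Rpl5 and Rpl11 bind Mdm2 and thereby stabilise p53. A few proteins have a paralog of narrower expression, such as Rpl3l in striated muscle and Rpl10l and Rpl39l in the testis.

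The sequence around the transcription start is shown for some members that stood lowest or highest in stromal cells. Rps27, a member higher relative to the set in lymphoid cells, is shown as well. The set is known for a pyrimidine run at the start, but not every line shows a long one. The longest run was 3 bases in Rps15 and Rpl10, 4 in Rps28, 6 in Rps2 and 7 in Rpl12. In the other lines it was 9 bases or more. The run of Rpl10 and that of Rps2 began some bases after the start, and that of Rps15 ended before it. How far a long run is shared is counted below. Rpl39l, Rpl7l1 and Rpl35a, also at the ends of that order, are not shown. Their longest runs over all RefSeq starts were 7, 2 and 13 bases. Each line holds 12 bases before and 18 from the RefSeq start on GRCm38.p6, with the longest run of C or T in capitals.
Rps6: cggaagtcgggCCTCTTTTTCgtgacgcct
Rps15: ggcagagCTCgcgataactgcgcaagcgca
Rps9: gccttgTCTCTCTTTgtctcgggcctgagt
Rpl12: ggagcaggatccgTCTTTTCggctttcggc
Rpl38: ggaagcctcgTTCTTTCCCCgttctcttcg
Rpl35: ccccgCCCTTTCCTCTTTCTCTCgaaccag
Rps28: accgcgtgcggTCTCgcgagagcgaaagtg
Rps27: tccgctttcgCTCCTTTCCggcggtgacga
Rpl22l1: cggcgcaagcccgTTCTCTTCCCacggctg
Rpl10: gttacagtggaagataggccgCCTatataa
Rps2: cagtcgagatctcgcgCTTCTTggagcact

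These windows lie at chr4:86857350-86857379 (Rps6, minus strand), chr10:80292419-80292448 (Rps15, plus), chr7:3704029-3704058 (Rps9, plus), chr2:32961700-32961729 (Rpl12, plus) and chr11:114668568-114668597 (Rpl38, plus). The others lie at chr2:39005114-39005143 (Rpl35, minus), chr17:33824545-33824574 (Rps28, minus), chr3:90213631-90213660 (Rps27, minus), chr3:28805496-28805525 (Rpl22l1, plus), chrX:74270804-74270833 (Rpl10, plus) and chr17:24720051-24720080 (Rps2, plus). RefSeq gave a start for 63 members and none for the other 20, Rpl29 and Rps29 among them. A run of 8 or more C or T was found in the window of 26 of the 63 members (41.3%), against 3630 of 27025 genes of the same table (13.4%). In the 300 bases around the start, read on both strands, CCGGAAG, the core bound by ETS factors, was found for 41.3% of members and 9.93% of all genes, and CTCTTTC for 28.6% and 9.28%. A match is a description of the letters alone. The members with a run differed little from those without one in how they stood between libraries: in stromal cells the median log2 ratio of Pdgfra-Cre to wild type was -0.68 with a run (26 members) and -0.63 without (35 members), and that of Pdgfrb-Cre to wild type was -0.22 and -0.23.

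The libraries held 2310, 4355 and 4124 barcodes in the order Pdgfra-Cre, Pdgfrb-Cre and wild type, an order kept wherever 3 values are listed. After filtering, 1409, 3903 and 2668 cells with medians of 7522, 5675 and 3321 unique molecular identifiers (UMIs, 1 per captured mRNA molecule) were kept, 7980 in all. Cells fell into 29 clusters, named from markers of 19 cell classes. Every class name means likeness by RNA markers, and 1507 cells stayed unnamed. From 1 to 5 barcodes were shared by any pair of libraries. Tert itself had 7, 10 and 14 UMIs in kept cells, read at the 3-prime end of the transcript. The labels do not give the deleted exons, so this does not check the deletion.

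Ribosomal protein mRNAs were among the most abundant of these cells. Of the 100 most abundant features over all kept cells, 67 were members, and the median member stood at 3254 CPM, against 0.323 CPM for the median feature. CPM, the normalised count used throughout, scale the summed UMIs of a group of cells to a common total. Each transcript gives 1 tag, so they are not scaled by length. The 10 most abundant members held 22.1% of ribosomal protein UMIs. Among them were Rps24 (7087 CPM), the acidic stalk protein Rplp1 (6663), Rps29 (6224), Rpl13 (6161), Rps27 (6019), Rps20 (5392), Rpl23 (5087), Rps19 (4789) and Rps16 (4736). In all, 74 members had at least 1000 CPM, 5 lay from 100 to under 1000 CPM, and 4 lay under 100 CPM.

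The low members were mostly paralogs. Rpl3, a core protein of the peptidyl transferase region, stood at 2376 CPM, and its muscle paralog Rpl3l at 0.684 CPM, from 25, 5 and 6 UMIs. Rpl39 stood at 4052 CPM and Rpl39l at 2.28 CPM. Rpl10l had no UMI in any barcode, where Rpl10 had 2319 CPM, and a count of 0 allows up to 0.057 CPM over the kept cells.

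The other paralogs were expressed in every library. Rpl7l1, whose product acts in assembly of the large subunit, stood at 36.3 CPM beside 2274 CPM for Rpl7. Rps27l, a paralog known as a p53 target, stood at 203 CPM beside 6019 CPM for Rps27. Rpl22l1, which can replace Rpl22, stood closest to its partner, at 843 CPM beside 1733 CPM. The remaining members under 1000 CPM were Rpl27, Rpl31 and Rpl13a, the last at 414 CPM.

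Counting can blur such comparisons. The last 400 transcript bases of 74 members share a stretch of 50 bases with another annotated gene, mostly a pseudogene, and for 24 members with a gene that the files also list. Reads from such stretches may be assigned elsewhere or dropped, so the level of 1 member against another is uncertain. The same member was counted by the same procedure in all cells. Whether such losses differed between cells or libraries was not tested.

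The share of a cell's UMIs that came from these genes separated lymphoid from mesenchymal and vascular cells. The unnamed cluster 3 was led by Ccl5, Ly6c2, Eomes, Gzmm and Ifng, genes of cytotoxic lymphocytes, and gave 36.1%, 40.5% and 45.1% ribosomal protein UMIs in its 212, 535 and 60 cells. T cells gave 41.7% in the Pdgfrb-Cre and 41.3% in the wild-type library, and B cells 31.8% and 34.1%. NK cells gave 21.7%, 26.4% and 31.2%.

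Cells of the tissue itself were lower. Stromal cells, which carry the markers of adipose progenitors such as Pdgfra and collagens, gave 12.5% (95% exact interval 12.46 to 12.51), 16.6% (16.55 to 16.61) and 19.3% (19.22 to 19.38) in 620, 568 and 250 cells. Intervals here and below cover counting error only. Blood endothelial cells gave 13.7%, 13.1% and 15.8%, and macrophages or monocytes 20.2%, 16.7% and 17.0%. Erythroid markers summed to 17451, 0.979 and 347 CPM in blood endothelial cells, 13200, 1.22 and 253 CPM in cluster 3, and 163, 1.74 and 10.4 CPM in macrophages. Of UMIs outside haemoglobin the shares were 13.9%, 13.1% and 15.8% in blood endothelial cells, 36.6%, 40.5% and 45.1% in cluster 3, and 20.2%, 16.7% and 17.0% in macrophages. Mesothelial cells numbered 123, 0 and 0 and gave 15.6% in the Pdgfra-Cre library. Mural cells numbered 32, 44 and 159 and, in the library with at least 50 of them, wild type, also gave 15.6%. Wild-type dendritic cells gave 22.3%.

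**Figure D1:**
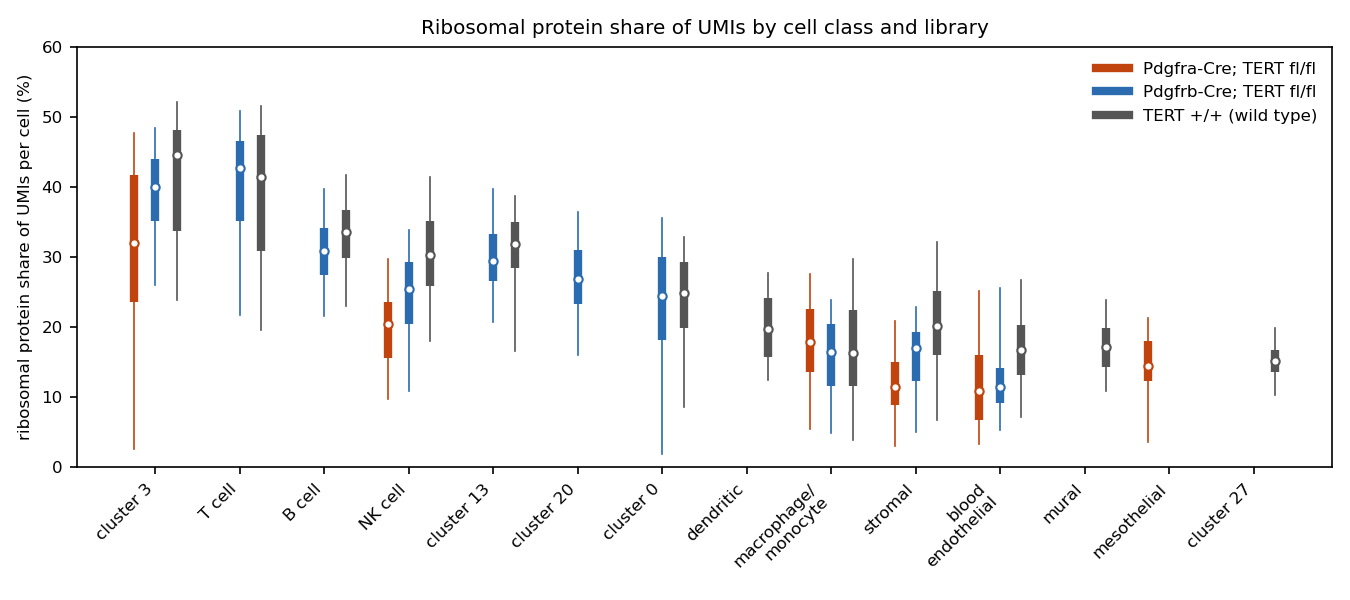
Share of UMIs from the 83 ribosomal protein genes in each cell (percent, vertical axis) by cell class or unnamed cluster with at least 50 cells in a library, coloured by library. Circles are medians over cells, thick bars the quartiles and thin lines the central 90% of cells. Medians of cluster 3 and T cells lie at 32.0% or above, and those of stromal and blood endothelial cells at 20.2% or below.

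Each genotype gave 1 difference between a class and stromal cells, so the class comparison has 3 libraries. Cluster 3 exceeded stromal cells by 23.6, 24.0 and 25.8 percentage points (mean 24.5 ± 1.20, SD, n = 3), and NK cells by 9.25, 9.84 and 11.9 points (10.3 ± 1.38). Both were higher in 3 of 3 libraries. Blood endothelial cells differed by 1.19, -3.50 and -3.48 points (-1.93 ± 2.70), and macrophages by 7.73, 0.0772 and -2.33 points (1.82 ± 5.25). The exact two-sided sign-flip permutation test over the 3 libraries cannot go below p = 0.25, which cluster 3 and NK cells reached, against 0.5 for blood endothelial cells and 0.75 for macrophages. Adjusted over the 4 comparisons these were 0.5, 0.5, 0.667 and 0.75.

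Gene by gene, the same contrast was tested with edgeR's quasi-likelihood test on UMI sums per library and class, with library as a block and Benjamini-Hochberg adjustment over 9774 features, of which 80 were members. In cluster 3, 78 of 80 members rose against stromal cells and 1 fell, with a median log2 fold change of 1.70 against -0.14 over all features. Of all features tested, 23.6% rose and 31.7% fell. The member that fell was Rps27l, and Rpl7l1, at a log2 fold change of 0.18 ± 0.32 (SE, edgeR adjusted p = 0.661), did not pass in either direction.

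In NK cells 44 members rose and 1, Rps27l, fell (median 0.60, all features -0.22), where 17.4% of all features rose and 26% fell. In blood endothelial cells no member rose and 11 fell (median -0.37, all features 0.01), beside 15.1% and 16% of all features. None of the members had a higher value at an unadjusted p under 0.05 there, and DESeq2 also called 0 higher. The 11 lower members are 13.8% of the set, near the share of all features. In macrophages Rps9 and Rps29 rose and no member fell (median 0.19, all features -0.09), beside 17.6% and 21.8% of all features. There, 1 member was lower at an unadjusted p under 0.05 in edgeR, and DESeq2 called 1 lower.

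The blood endothelial and macrophage counts rested on single libraries. Without the Pdgfra-Cre library 39 members fell in blood endothelial cells, without the Pdgfrb-Cre library 0 and without the wild-type library 3. In macrophages 5 members fell without the Pdgfra-Cre library, and none rose without the Pdgfrb-Cre library. NK cells had 23 higher members without the Pdgfrb-Cre library and 26 without the wild-type library, while cluster 3 had 76 to 78.

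Other parts of the translation machinery were read from lists beside the members. They are set against the shares of all features, 23.6% higher and 31.7% lower in cluster 3, 17.4% and 26% in NK cells, and 17.6% and 21.8% in macrophages. Of 20 translation factors and other TOP mRNAs, 16 rose in cluster 3 (median log2 fold change 1.0) and 7 in NK cells (0.46), and none fell in either. Of 26 genes of ribosome biogenesis and RNA polymerase I, 18 rose and none fell in cluster 3. In NK cells 6 rose and 1 fell, with the higher count near the share of all features, and in macrophages 2 rose and 4 fell. Of 75 mitochondrial ribosomal protein genes, which build the separate ribosome of the mitochondrion, 15 rose and 9 fell in cluster 3 and 4 rose and 9 fell in NK cells. The 15 are near the share of all features. Their median in cluster 3 was 0.18, against 1.70 for the cytosolic set.

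Members that departed from the set were sought with the same edgeR fit scaled to the summed ribosomal protein UMIs, so that a value says how a member moved relative to its set. On this scale 5.65% of all features were higher and 76.6% lower in cluster 3, as the scaling itself moves every other gene. Of the members, 13 were higher and 20 lower in cluster 3, and 12 higher and 11 lower in NK cells (8.56% and 40.6% of all features).

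Rps27l departed most. It had 98.4, 85.2 and 59.3 CPM in cluster 3 and 102, 92.9 and 50.6 CPM in NK cells, against 242, 255 and 324 CPM in stromal cells. The lymphoid values lay below the stromal values in each library, with no overlap. Relative to the set Rps27l fell by 3.08 ± 0.34 on the log2 scale in cluster 3 (edgeR adjusted p = 9.9e-07) and by 2.42 ± 0.35 in NK cells (adjusted p = 3.9e-05), and both calls held without any 1 library. T cells had 69.8 and 59.2 CPM and B cells 66.8 and 38.3 CPM in the Pdgfrb-Cre and wild-type libraries. Macrophages had 276, 342 and 333 CPM, and dendritic cells of the wild-type library 675 CPM.

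Rps27, its partner, went the opposite way. It had 9640, 9184 and 12293 CPM in cluster 3, against 2341, 2460 and 3523 CPM in stromal cells, and rose relative to the set by 0.57 ± 0.10 in cluster 3 (adjusted p = 6.0e-05) and by 0.57 ± 0.10 in NK cells (adjusted p = 1.5e-04). The lowest cluster 3 value was above the highest stromal value. A near-identical gene, Rps27rt, is listed in the files, so reads of Rps27 may be split between them.

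Rpl10, which completes the large subunit near the tRNA sites, rose less than the set in cluster 3. It had 2900, 2493 and 2702 CPM in cluster 3, against 2276, 2105 and 2175 CPM in stromal cells. Relative to the set it fell by 1.05 ± 0.15 in cluster 3 (edgeR adjusted p = 9.0e-06). Its set-relative values of -0.55 in NK cells and -0.51 in blood endothelial cells also passed but lost their call without the Pdgfra-Cre or without the Pdgfrb-Cre library.

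Other members that fell relative to the set in cluster 3 included Rpl7l1 (-1.57) and the large-subunit protein Rpl28 (-0.68). Those that rose were Rpl12 (0.59), a protein of the stalk base, Rps16 (0.56), the stalk protein Rplp2 (0.52) and Rps15a (0.47). Rpl12 had 5494, 7728 and 8626 CPM in cluster 3, against 1305, 2040 and 2442 CPM in stromal cells, so each cluster 3 value was above all stromal values. All 10 members named for cluster 3 kept their call when any 1 library was left out.

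In NK cells Rps12 fell by 0.58 relative to the set, with 3384, 4566 and 4700 CPM against 2943, 4023 and 4596 CPM in stromal cells, so its own level overlapped while the set's did not. Rpl27 rose by 0.72 ± 0.19 (edgeR adjusted p = 0.00439), with 1345, 1319 and 1375 CPM in NK cells against 413, 496 and 595 CPM in stromal cells. The groups did not overlap, but the call was lost without the Pdgfrb-Cre library. Rpl24 (-0.49), Rps3 (0.48), Rplp2 (0.46) and Rps16 (0.40) also passed, and each lost its call without at least 1 library.

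In blood endothelial cells 6 members were higher and 5 lower relative to the set (19.4% and 9.74% of all features). Rpsa, a small-subunit protein also known as the laminin receptor precursor, had 1195, 1387 and 1770 CPM there, against 1804, 2320 and 2919 CPM in stromal cells. Its highest endothelial value was below its lowest stromal value. It fell relative to the set by 0.52 ± 0.12 (edgeR adjusted p = 0.00272). Of the 10 members named for this class it alone kept its call without any 1 library. The others included Rpl10 (-0.51), Rpl10a (-0.41), Rpl12 (-0.40) and Rpl39 (-0.38) on the lower side, and Rps21 (0.47), Rps14 (0.40), Rpl9 (0.39) and Rps27 (0.34) on the higher side.

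In macrophages 5 members were higher and 7 lower relative to the set (13% and 21.4% of all features). Rps29, a short zinc-binding protein of the small subunit, had 7082, 4727 and 7280 CPM there, against 3151, 2982 and 5294 CPM in stromal cells, and rose by 0.59 ± 0.09 (edgeR adjusted p = 9.2e-05). It was higher in each library, with overlap across libraries, and alone of 10 named members kept its call without any 1 library. Rpl22l1 had 398, 425 and 523 CPM in macrophages, against 682, 661 and 573 CPM in stromal cells, with no overlap. It fell by 0.71 ± 0.26 (adjusted p = 0.0425), a call lost without the Pdgfra-Cre or without the Pdgfrb-Cre library. Rps9 (0.51), Rps27a (0.40) and Rplp2 (0.33) were on the higher side, and Rpl21 (-0.54), Rpl12 (-0.47), Rps20 (-0.42) and Rps4x (-0.39) on the lower side.

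**Figure D2:**
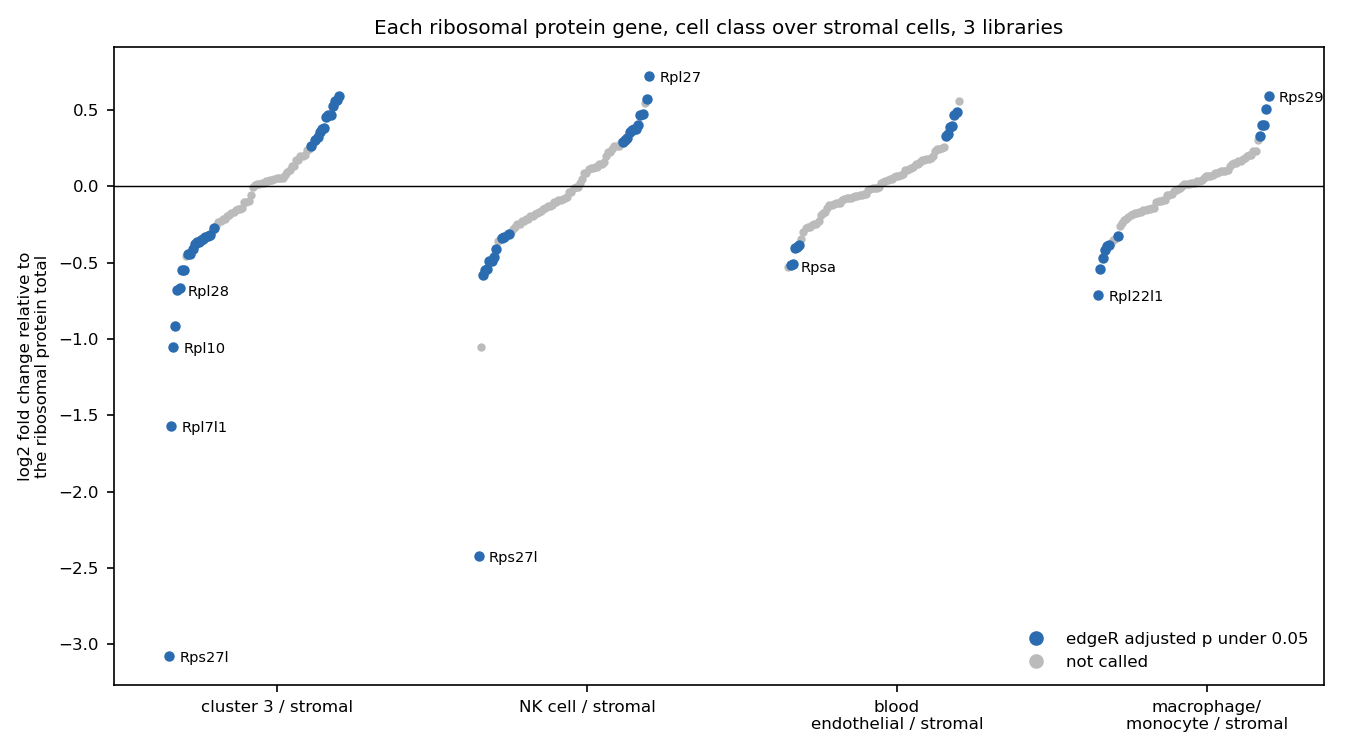
Log2 fold change of each tested member relative to the ribosomal protein total (vertical axis) in cluster 3, NK cells, blood endothelial cells and macrophages or monocytes over stromal cells, with members in order of value within a class (edgeR, library as a block; blue points passed the adjusted threshold of 0.05, grey points did not). Rps27l lies lowest in cluster 3 (-3.08) and NK cells (-2.42), far from the rest of the set.

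Between libraries, the set was compared first in stromal cells. The 81 members that reached 10 CPM in at least one of the libraries had a median log2 ratio, with 10 CPM added on both sides, of -0.65 in the Pdgfra-Cre against the wild-type library, where all 9135 features had a median of 0.02. In that comparison 53 members were lower by 1.5-fold or more and 1 was higher (65.4% of members lower), against 13.9% of all features lower and 16.4% higher. The summed set was 0.647 of the wild-type level (0.643 to 0.650). Of the 81 members, 78 were lower to any degree and 77 lay within 1.5-fold of the set's median. Most Pdgfra-Cre stromal cells lay in a cluster of their own. In clusters 8 and 11, which hold cells of every library, 27 members were lower by 1.5-fold or more. Only 8 were lower, and the median was -0.36, once 81 cells that a finer clustering set apart were left out.

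Over the whole stromal class the Pdgfrb-Cre library lay much nearer to the wild-type library, which both comparisons share. Its 81 members had a median log2 ratio of -0.22 (all features -0.10), 2 were lower by 1.5-fold or more and 1 was higher, against 16.4% and 12.8% of all features, and the set stood at 0.859 of wild type (0.855 to 0.864). TMM factors over all genes turned this median to 0.02. In clusters 8 and 11, without the cells that the finer clustering set apart, the Cre libraries lay close to each other. The medians there were -0.36 in the Pdgfra-Cre and -0.34 in the Pdgfrb-Cre library.

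Depth also differed, mainly between the wild-type library and the Cre libraries. Wild-type stromal cells had a median of 1668 UMIs, against 9682 in Pdgfra-Cre and 10508.5 in Pdgfrb-Cre stromal cells, and median UMIs outside the set were 8501, 8666.5 and 1376.5. When the stromal cells of each library were split into 3 equal groups by UMIs outside the set, the shares from the shallowest to the deepest group were 11.3%, 11.97% and 13.1% in the Pdgfra-Cre library. They were 14.5%, 16.6% and 17.2% in the Pdgfrb-Cre library and 24.3%, 19.6% and 18.5% in the wild-type library. The share was thus higher in deeper cells of either Cre library and lower in deeper cells of the wild-type library. UMIs outside the set are also part of the denominator of the share. Among stromal cells with 2000 to 8000 UMIs the shares were 10.8%, 13.3% and 16.6%, 44 members were lower by 1.5-fold or more in the Pdgfra-Cre library, and 7 in the Pdgfrb-Cre library.

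Clusters also divided by library. Cluster 6 contained 491 of the 620 Pdgfra-Cre stromal cells, with 1 and 0 from the other libraries. Cell numbers were 6, 324 and 0 in cluster 7, and 23, 24 and 186 in cluster 8. Mesothelial cells, outside the stromal class, numbered 123, 0 and 0. Whether the tissue sampled differed in depot or make-up between libraries was not tested. In cluster 11, the stromal cluster with at least 30 cells of every library (100, 120 and 31), the shares were 13.3%, 14.7% and 18.1%. There, 25 members were lower by 1.5-fold or more in the Pdgfra-Cre and 7 in the Pdgfrb-Cre library, and the Pdgfra-Cre median log2 ratio was -0.47.

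These cluster 11 values rest on shallow Pdgfra-Cre cells. At Leiden resolution 2, 81 of its 100 Pdgfra-Cre cells, 6 of its Pdgfrb-Cre and 0 of its wild-type cells fell into a cluster led by the haemoglobin genes Hba-a2 and Hbb-bs. The 81 cells had a median of 1540 UMIs, gave 10.8% ribosomal protein and 4.29% haemoglobin UMIs, and 2 of them held over 1% haemoglobin. Without these cells cluster 11 gave 16.1%, 14.9% and 18.1% in 19, 114 and 31 cells, with 7 members lower by 1.5-fold or more in either Cre library and a Pdgfra-Cre median of -0.19. Clusters 8 and 11 together, without them, gave 15.7% in both the Pdgfra-Cre and Pdgfrb-Cre libraries and 20.01% in the wild-type library (42, 138 and 214 cells), with 8 and 10 members lower. The Cre libraries thus differed little there, and both stayed below wild type. Median UMIs of these cells were 7691.5, 6801 and 1543.5, so depth was not matched to wild type. Why the 81 cells stood apart was not tested.

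RNA of other cells was also uneven, and its part in the result was not tested. The 11 T cell markers summed to 9.47, 26.6 and 282 CPM in stromal cells, with UMIs for 10, 10 and 11 of them and Lef1 at 0 in the Pdgfra-Cre and Cd8a at 0 in the Pdgfrb-Cre library. The 9 B cell markers summed to 878, 789 and 973 CPM, with UMIs for 4, 9 and 9, and Cd79b, Ms4a1, Cd22 and Fcmr among those at 0 in the Pdgfra-Cre library. The 9 NK cell markers summed to 6.14, 7.26 and 74.2 CPM, with UMIs for 6, 5 and 7 of them. Of 14 macrophage markers 13, 12 and 9 had UMIs, at 43.2, 25.7 and 136 CPM in sum. The 7 erythroid markers summed to 2615, 1.49 and 14.8 CPM, with UMIs for 5, 3 and 2 and Slc4a1 at 0 in each library. Mitochondrially encoded genes took 1.95%, 2.87% and 4.01% of stromal UMIs.

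Depth and share were read side by side in the other classes. NK cells had medians of 4265, 4192.5 and 4720 UMIs and shares of 21.7%, 26.4% and 31.2%. T cells, with medians of 5740.5 and 5288 UMIs in the Pdgfrb-Cre and wild-type libraries, did not show a gap of that kind, at 41.7% and 41.3%, although different clusters, 1 in the Pdgfrb-Cre and 12 in the wild-type library, held most of them. The order of shares differed in blood endothelial cells, at 13.7%, 13.1% and 15.8% with medians of 3935.5, 7998.5 and 1674 UMIs, and in macrophages, at 20.2%, 16.7% and 17.0% with medians of 3998, 8893 and 2510 UMIs. The part of depth in these shares was not tested.

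Single members spread narrowly around the shift of the set in Pdgfra-Cre stromal cells. Rps6, the small-subunit protein that S6 kinase phosphorylates, had 866, 1479 and 1677 CPM, and its log2 ratio of Pdgfra-Cre to wild type was -0.95 (ratio 0.516, 0.487 to 0.548). Rps15 had 1086, 1775 and 2097 CPM (log2 ratio -0.94), Rps9 1659, 2190 and 3103 CPM (-0.90) and Rpl12 1305, 2040 and 2442 CPM (-0.90). In each of these the Pdgfra-Cre library was lowest and the wild-type library highest. The lowest ratio belonged to the rare Rpl39l, with 0.877, 10.2 and 13.7 CPM from 5, 62 and 12 UMIs, at -1.12.

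At the other end were Rpl22l1 with 682, 661 and 573 CPM (log2 ratio of Pdgfra-Cre to wild type 0.25), Rpl10 with 2276, 2105 and 2175 CPM (0.07), Rpl7l1 with 38.4, 24.7 and 38.8 CPM (-0.01) and Rpl35a with 2140, 2716 and 2384 CPM (-0.16). Rpl22, the partner of Rpl22l1, had 873, 1201 and 1419 CPM, so the paralog stood highest and its partner lowest in the Pdgfra-Cre library. Scaled to the set's own UMIs, the median was -0.02, with 1 member lower by 1.5-fold or more and 4 higher.

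**Figure D3:**
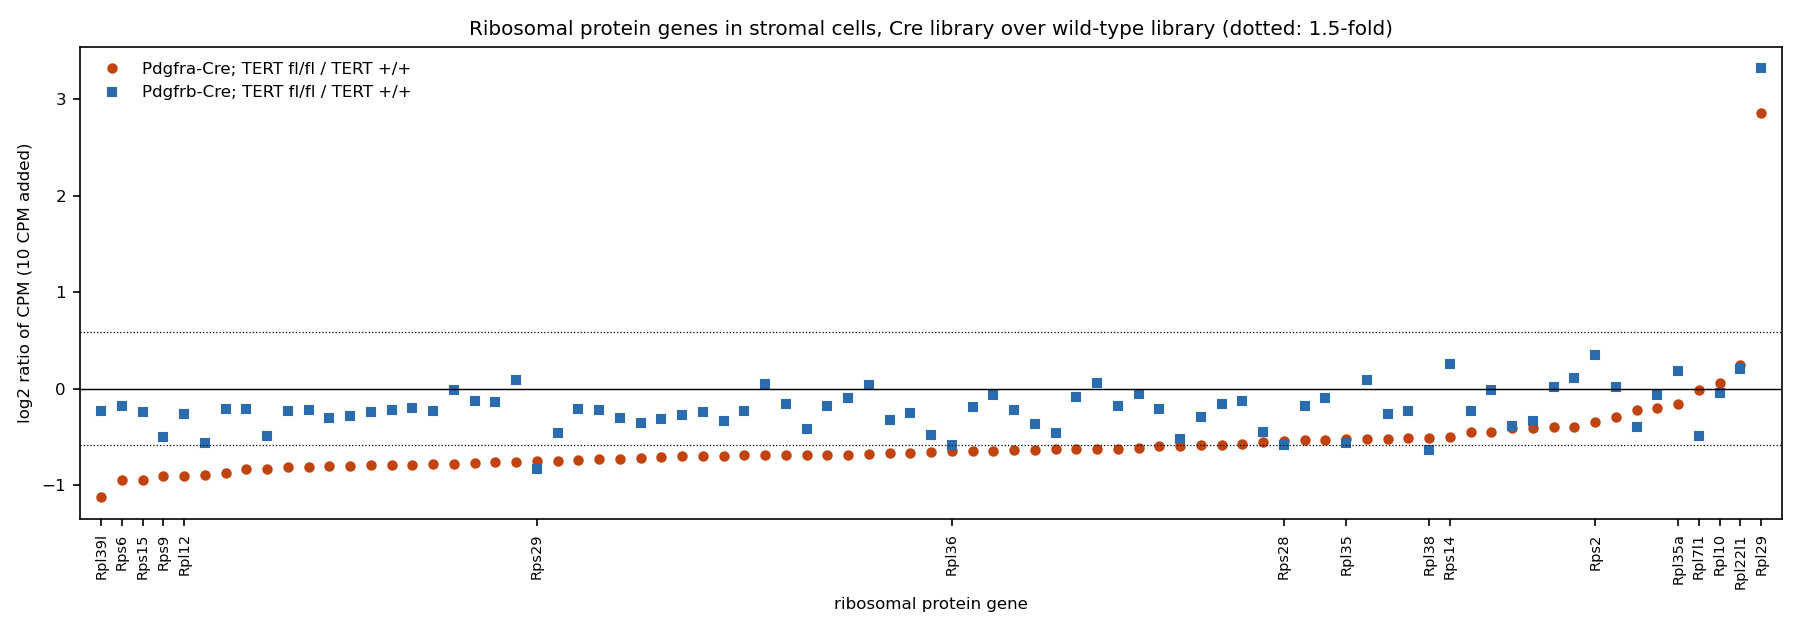
Log2 ratio of CPM (10 CPM added, vertical axis) of each member in stromal cells of the Pdgfra-Cre (circles) and of the Pdgfrb-Cre library (squares) over the wild-type library, members in order of the Pdgfra-Cre ratio, with the 5 lowest and highest of each comparison labelled. Most Pdgfra-Cre values lie near the median of -0.65 and most Pdgfrb-Cre values near -0.22, while Rpl29 lies at 2.86 and 3.32.

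Coding length was compared with the ratios because short and long transcripts can differ in capture. Across 80 members in stromal cells Spearman's rho was -0.12 for Pdgfra-Cre and 0.46 for Pdgfrb-Cre, so in Pdgfrb-Cre cells shorter proteins had lower ratios. In Pdgfra-Cre blood endothelial cells it was -0.45. These are descriptions across genes that share libraries, not tests.

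Genes known to set or follow ribosomal protein output gave mixed values in stromal cells. Of all features, 16.4% were higher and 13.9% lower by 1.5-fold or more in the Pdgfra-Cre library, and 12.8% and 16.4% in the Pdgfrb-Cre library. Of 20 translation factors and other TOP mRNAs, 5 were lower by 1.5-fold or more in the Pdgfra-Cre library (median log2 ratio -0.38) and 0 in the Pdgfrb-Cre library (-0.03). Eef1b2, an exchange factor of elongation, had 508, 1050 and 1234 CPM, and Eef1g, a subunit of the same complex, 241, 372 and 480 CPM. Both were lowest in the Pdgfra-Cre library, at log2 ratios of -1.26 and -0.96. Of 26 genes of ribosome biogenesis, 6 were higher by 1.5-fold or more in the Pdgfra-Cre and 5 in the Pdgfrb-Cre library, and none was lower, so the higher counts lie not far above the shares of all features. Nop58, a core protein of the small nucleolar RNPs, had 516, 238 and 73.1 CPM, and the nucleolar GTPase Gnl3 134, 207 and 61.7 CPM.

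Myc, which drives transcription of the set, had 186, 187 and 38.8 CPM in stromal cells (log2 ratios 2.01 and 2.01). It was the 1 gene of 14 regulators that was higher by 1.5-fold or more in the Pdgfra-Cre library, with none lower. In the Pdgfrb-Cre library 4 of 15 were higher and 3 lower, counts near the shares of all features on the lower side, with the mTORC1 inhibitors Sesn2 at 1.23 and Ddit4 at -1.31 and the translation repressor Eif4ebp1 at -0.73.

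Of 10 integrated stress response genes, 8 were higher and 0 lower in the Pdgfra-Cre library and 6 higher and 1 lower in the Pdgfrb-Cre library (median log2 ratios 0.88 and 0.90). Atf4, the transcription factor of that response, had 420, 551 and 120 CPM, and Ppp1r15a, which restores translation after stress, 502, 437 and 113 CPM. Psat1, an enzyme of serine synthesis, had 66.7, 6.93 and 7.99 CPM and was high in the Pdgfra-Cre library alone. In the Pdgfrb-Cre library the serine synthesis enzyme Phgdh, at -0.77, was lower. The list was also higher outside stromal cells. Its median log2 ratios were 0.41 and 0.73 in Pdgfra-Cre and Pdgfrb-Cre blood endothelial cells (all features -0.03 and -0.04). In Pdgfrb-Cre B and T cells they were 0.59 and 0.29 (all features -0.02 and -0.08). Atf4 had 342, 325 and 135 CPM in NK cells, 309, 283 and 144 CPM in cluster 3, and 287, 533 and 140 CPM in macrophages.

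Of 8 genes of the p53 link, Cdkn1a, the cell cycle inhibitor, had 346, 435 and 75.4 CPM and Mdm2 48.4, 59.4 and 21.7 CPM. Both were higher by 1.5-fold or more in each Cre library, with none of the list lower. Of all features, 16.4% and 12.8% were higher to that degree. Rps27l, in this list as well as a member, had 242, 255 and 324 CPM. Cdkn1a was higher in both Cre libraries outside stromal cells too. It had 1119, 862 and 249 CPM in blood endothelial cells and 486, 444 and 109 CPM in macrophages. In NK cells it had 189, 201 and 80.2 CPM, and in cluster 3 139, 183 and 13.7 CPM. Mdm2 was not higher in both in cluster 3, at 47.4, 30.3 and 36.5 CPM.

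Ribosomal proteins outside the symbol rule went the way of the set. All 5 of them in the files were lower to some degree in either Cre library, with median log2 ratios of -0.57 and -0.30. In the Pdgfra-Cre library the lowest were Rps27rt (-1.02) and Rack1 (-0.69), a scaffold on the small subunit. Of the mitochondrial ribosomal protein genes, 6 of 75 were lower and 3 higher in the Pdgfra-Cre library (median -0.06), both below the shares of all features. In the Pdgfrb-Cre library 23 of 74 were lower and 0 higher (median -0.38), where 16.4% of all features were lower. The extremes were Mrps6 (1.20), Mrps12 (0.89), Mrpl57 (-0.73) and Mrps18a (-0.71) in the Pdgfra-Cre library, and Mrpl44 (-1.10) and Mrpl18 (-0.97) in the Pdgfrb-Cre library.

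The other classes compared were those in which both libraries held 100 cells or more. Blood endothelial cells gave median log2 ratios of -0.24 (Pdgfra-Cre; all features -0.03) and -0.28 (Pdgfrb-Cre; all features -0.04). In the Pdgfra-Cre library 1 of 80 members was lower by 1.5-fold or more and 1 higher, against 8.33% and 8.04% of all features. In the Pdgfrb-Cre library 6 were lower and 1 higher, against 8.58% and 10.6%, a share near that of all features. The 6 were Rps29, Rps26, Rps9, Rps28, Rpl7l1 and Rpl13a. B cells gave a median of -0.09 in the Pdgfrb-Cre library, with 1 of 80 members lower and 3 higher, against 14.5% and 14.3% of all features. Different clusters held these B cells: 941 of 952 in the Pdgfrb-Cre library lay in cluster 4, and 597 of 620 in the wild-type library in cluster 24. T cells gave 0.01, with 1 lower and 2 higher, against 17.2% and 12.5%. The B and T cell medians depend on the scaling, at 0.02 and 0.29 with TMM factors.

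Rps29 and Rps2 departed in opposite directions in the Pdgfrb-Cre library. Rps29 had 8797 CPM in Pdgfrb-Cre against 13272 CPM in wild-type T cells, 7085 against 11067 CPM in B cells, 2952 against 5299 CPM in blood endothelial cells and 2982 against 5294 CPM in stromal cells. Its log2 ratios were -0.59, -0.64, -0.84 and -0.83. Rps2, a protein of the mRNA entry channel, had 4679 against 2571 CPM in T cells, 3565 against 2158 CPM in B cells, 1587 against 1230 CPM in blood endothelial cells and 2299 against 1799 CPM in stromal cells. Its log2 ratios were 0.86, 0.72, 0.37 and 0.35. Rps2 was thus higher by 1.5-fold in T and B cells and by less in the other classes, and among stromal cells with 2000 to 8000 UMIs its log2 ratio was -0.11. In Pdgfra-Cre stromal cells Rps2 had 1417 and Rps29 3151 CPM.

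The other members lowest in Pdgfrb-Cre stromal cells were read in the same classes. Rpl38 had log2 ratios of Pdgfrb-Cre to wild type of -0.63, -0.58, -0.51 and -0.38 in stromal, blood endothelial, B and T cells. Rps28 had -0.58, -0.63, -0.34 and -0.40, Rpl36 -0.58, -0.44, -0.39 and -0.28, and Rpl35 -0.57, -0.53, -0.38 and -0.16. All 4 were lower in each of the 4 classes. On the higher side in stromal cells were Rps14 (0.26), Rpl22l1 (0.20) and Rpl35a (0.19), and Rpl22l1 turned to -0.03 among cells with 2000 to 8000 UMIs.

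**Figure D4:**
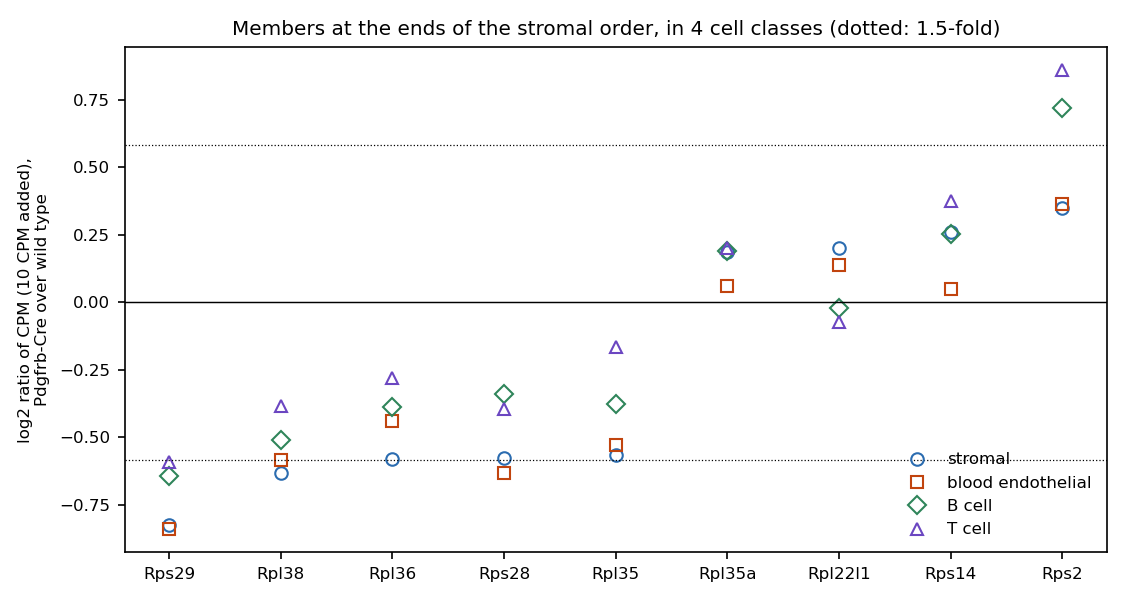
Log2 ratio of CPM (10 CPM added) of the Pdgfrb-Cre to the wild-type library in stromal, blood endothelial, B and T cells for the members lowest or highest in stromal cells, Rpl29 left out. Rps29 lies between -0.84 and -0.59 in every class, and Rps2 between 0.35 and 0.86.

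Rpl29 was the only member that departed from the set by more than 1.5-fold in the same direction in every class compared. It encodes a small basic protein of the large subunit and lies on chromosome 9 at 106429454 to 106431568, plus strand (GENCODE M21, GRCm38). Stromal cells had 669, 923 and 83.3 CPM of Rpl29, from 3815, 5593 and 73 UMIs, and blood endothelial cells 891, 844 and 79.5 CPM. NK cells had 1275, 1523 and 71.7 CPM, cluster 3 had 1947, 1866 and 123 CPM, and macrophages 1130, 886 and 49.4 CPM. T cells had 1843 CPM in the Pdgfrb-Cre and 104 CPM in the wild-type library, and B cells 1559 and 87.1 CPM. Both Cre libraries were far above the wild-type library in each class, without overlap.

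The log2 ratio to wild type of Rpl29 was 2.86 in Pdgfra-Cre and 3.32 in Pdgfrb-Cre stromal cells, 3.33 and 3.25 in blood endothelial cells, and 4.01 in B and 4.03 in T cells of the Pdgfrb-Cre library. As a ratio of CPM, Pdgfrb-Cre stromal cells had 11.1 times the wild-type level (8.79 to 14.1) and T cells 17.8 times (15.8 to 20). Relative to the set's median the difference was 3.51 to 3.57 over 2 classes for Pdgfra-Cre and 3.54 to 4.11 over 4 classes for Pdgfrb-Cre. Among all features tested, Rpl29 ranked 39 of 9135 in Pdgfra-Cre and 15 of 8834 in Pdgfrb-Cre stromal cells, from the highest ratio. In blood endothelial cells it ranked 8 of 8748 for Pdgfra-Cre and 6 of 8798 for Pdgfrb-Cre, and in Pdgfrb-Cre B and T cells 2 of 6971 and 2 of 6701.

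At a threshold of 2-fold, Rpl29 was the 1 member higher in each of the 6 comparisons, and Rpl39l in Pdgfra-Cre stromal cells was the 1 member lower. Of all features, 7% were higher and 6.47% lower by 2-fold in Pdgfra-Cre stromal cells, 5.5% and 4.65% in Pdgfrb-Cre stromal cells, 2.48% and 2.27% in Pdgfra-Cre blood endothelial cells, and 3.71% and 2.39% in Pdgfrb-Cre blood endothelial cells. In Pdgfrb-Cre B cells these were 5.14% and 3.84%, and in T cells 4.18% and 4.22%.

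The low level was found in each wild-type cluster measured. In clusters of at least 30 cells Rpl29 spanned 616 to 1947 CPM over 9 Pdgfra-Cre clusters and 618 to 1871 CPM over 16 Pdgfrb-Cre clusters, against 36.4 to 123 CPM over 17 wild-type clusters. As a share of ribosomal protein UMIs these were 0.464% to 0.704% and 0.425% to 0.689%, against 0.0230% to 0.0576%.

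Its surroundings did not share the difference to that degree. Of the neighbours measured in stromal cells, Dusp7 had log2 ratios of -0.09 and -0.01 in the Pdgfra-Cre and Pdgfrb-Cre comparisons, Abhd14a 1.04 and 0.71, Alas1 1.12 and 0.08, Twf2 -0.07 and -0.90, Abhd14b 0.28 and 0.23, and Pcbp4 -0.06 and -0.50. Rpl29 is also the member with a large family of copies: 82 annotated genes share 50 bases with its transcript end, 81 of them pseudogenes. The 2 copies listed in the files, Gm17669 and Gm3550, had 2 and 1 UMIs in the Pdgfra-Cre, 2 and 6 in the Pdgfrb-Cre and 22 and 49 in the wild-type library. They were higher in the wild-type library, unlike Rpl29 itself, which had 11616 UMIs in the Pdgfra-Cre, 40434 in the Pdgfrb-Cre and 1041 in the wild-type library. The labels give no strain background for any of the libraries. Whether a sequence difference at the transcript end, or reads assigned to other copies or dropped, had a part in the level of Rpl29 in any library was not tested.

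**Figure D5:**
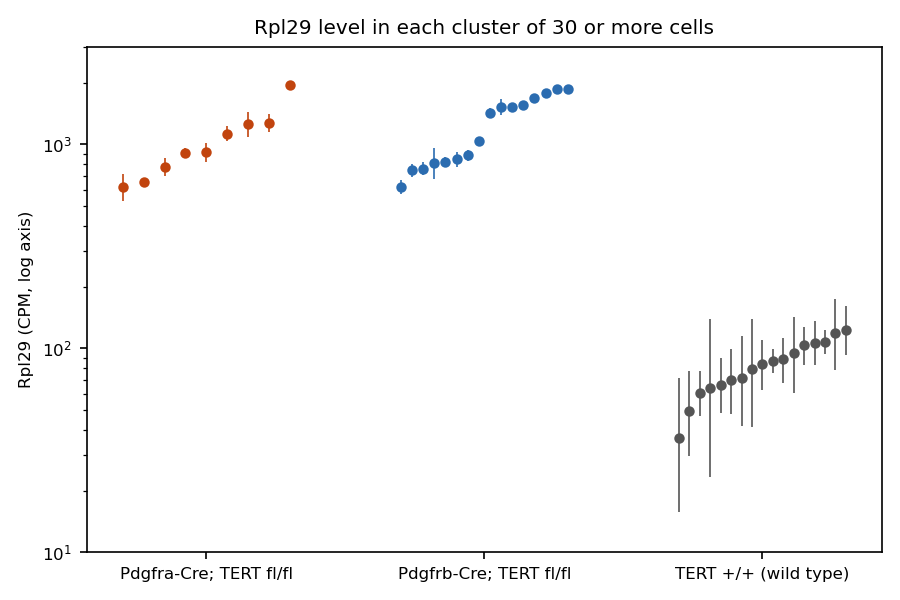
CPM of Rpl29 (log axis) in every cluster of at least 30 cells in the Pdgfra-Cre, Pdgfrb-Cre and wild-type libraries, clusters in order of level, with bars for the 95% counting interval. The wild-type points lie between 36.4 and 123 CPM, and those of the Pdgfra-Cre and Pdgfrb-Cre libraries at 616 CPM or above.

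Haemoglobin-rich barcodes were counted over all deposited barcodes, most of them below the cell filters. Barcodes in which haemoglobin genes held at least 25% of UMIs numbered 286, 4 and 8, of which 6, 0 and 0 passed the cell filters. At resolution 2 the kept cells also held the haemoglobin-led cluster described with cluster 11, of 81, 6 and 3 cells, named as erythroid from its markers, of which 2, 0 and 0 had over 1% haemoglobin UMIs. In the 286, 4 and 8 barcodes with at least 25% haemoglobin, ribosomal protein genes made up 0.732%, 3.11% and 9.42% of UMIs. Of the UMIs outside haemoglobin in these barcodes they made up 10.2%, 7.35% and 18.9%. The short Rpl41, Rps29 and Rplp1 led in the Pdgfra-Cre barcodes. More widely, the median ribosomal protein share among barcodes with under 500 genes was 2.97%, 4.40% and 18.8% (807, 207 and 1200 barcodes), so the low barcodes of the wild-type library held a share nearer to that of its cells.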

How the data were processed

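The deposited files hold raw UMI counts for each barcode, which the authors made with Cell Ranger 3.1.0 and STAR 2.6 on mm10, per the submitters' processing notes. Barcodes were kept from 500 genes up and to 15% mitochondrial UMIs. Doublets were scored with Scrublet per library in scanpy 1.11.5, and the top 0.8% per 1000 barcodes were left out. Clustering used 2000 variable genes, 30 components, 15 neighbours and Leiden resolution 1, without ribosomal protein genes or batch integration. Clusters took the class with the highest marker levels and stayed unnamed where their leading genes went against it. Counts were summed per library and class. Classes of at least 50 cells in each library entered edgeR 4.0.16 (R 4.3.3), with DESeq2 1.42.0 as an alternative, and classes of at least 100 cells in both libraries entered the ratios to wild type. Ratios carry exact binomial intervals and treat each UMI as a separate draw. A check on simulated data, NK against stromal cells, recovered 61% of 200 genes changed 3-fold, with 4 false calls among 9255 genes. In stromal cells the 5 highest and 5 lowest members of each ratio were named. For each class the 5 highest and 5 lowest called members relative to the set were named. Also named were members that departed in every class compared, the 10 most abundant members, paralogs, members with no UMI, and the 2 most changed genes of each list in either direction, as far as past 1.5-fold. The members and lists were chosen with earlier results of these data known. Settings by stromal cluster or UMI range were chosen after seeing the data. A few genes that these rules name are not reported here.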

Additional observations from a re-analysis of the deposited data

Results flagged for a closer look

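The share of UMIs from ribosomal protein genes in blood endothelial cells minus that in stromal cells had opposite signs in different libraries, at 1.19 percentage points in the Pdgfra-Cre, -3.50 in the Pdgfrb-Cre and -3.48 in the wild-type library. The same held for macrophages or monocytes minus stromal cells, at 7.73, 0.0772 and -2.33 points. Erythroid markers summed to 17451, 0.979 and 347 CPM in the blood endothelial cells and to 163, 1.74 and 10.4 CPM in the macrophages of these libraries. Of UMIs outside haemoglobin, the blood endothelial shares were 13.9%, 13.1% and 15.8%. With 1 library per genotype, neither difference between libraries was tested.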

How the results depend on the processing

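No paired analysis was possible because each genotype was 1 library. Library served as the block in the class contrasts, and with no replicate block the members lower in blood endothelial cells numbered 5 in place of 11, and those higher in macrophages 0 in place of 2. The stromal share in the Pdgfra-Cre, Pdgfrb-Cre and wild-type libraries was lowest in Pdgfra-Cre and highest in wild type in these settings: 12.5%, 16.7% and 18.9% with stricter cells, 12.6%, 16.9% and 19.8% with doublets kept, 11.95%, 15.7% and 20.3% as a mean over cells, and 12.7%, 17.1% and 20.1% without mitochondrial genes. Resolution 2 gave 12.5% and 16.6% in the Cre libraries. Settings chosen after seeing the data gave 14.2%, 15.5% and 20.04% in clusters 8 and 11, 13.3%, 14.7% and 18.1% in cluster 11, and 10.8%, 13.3% and 16.6% at 2000 to 8000 UMIs. Clusters 8 and 11 less the cells of the haemoglobin-led cluster at resolution 2 gave 15.74%, 15.65% and 20.01%, where the Cre libraries changed places. For Pdgfra-Cre stromal cells the median log2 ratio was -0.53 and 27 members were lower by 1.5-fold or more in clusters 8 and 11, -0.36 and 8 in clusters 8 and 11 less those cells, -0.47 and 25 in cluster 11, and -0.023 and 1, with 4 higher, when scaled to ribosomal protein UMIs. For Pdgfrb-Cre stromal cells 12 were lower in clusters 8 and 11, 10 there less those cells, 7 in cluster 11, 7 lower and 2 higher at 2000 to 8000 UMIs, 0 lower and 2 higher with TMM factors (median 0.022), and 1 lower when scaled to ribosomal protein UMIs. In the class contrasts, scaling to ribosomal protein UMIs gave 13 higher and 20 lower members in cluster 3, 12 and 11 in NK cells, 6 and 5 in blood endothelial cells, and 5 and 7 in macrophages. Leaving out 1 library gave 23 to 39 higher and 1 to 2 lower members in NK cells, 76 to 78 higher and 1 to 2 lower in cluster 3, 0 to 39 lower in blood endothelial cells, and 0 to 2 higher and 0 to 5 lower in macrophages. With no filter on low counts 2 members were lower in NK cells and 2 in cluster 3. For blood endothelial cells 7 were lower at resolution 0.5, 18 with stricter cells and 17 with DESeq2. For macrophages 5 were higher by library size only, 5 higher and 1 lower at resolution 0.5, and 1 lower with DESeq2. The cause of these shifts was not tested. No called value turned its direction. Of the single members named in ratios, 230 values kept their direction and side of 1.5-fold and 42 did not, and in class contrasts 179 kept their call and 91 lost it. Of the shares in T and blood endothelial cells, 26 values moved past their counting interval and 4 did not, and of the ratio summaries outside stromal cells 19 moved and 77 did not. The class contrasts gave no value for NK cells and macrophages with stricter cells, nor for NK cells at resolution 0.5, where they had under 50 cells in a library, and none for cluster 3, which has no name to carry over to another clustering. The depth of wild-type stromal cells, at a median of 1668 UMIs, limits the precision of single rare members.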
